A study of Mus musculus with 9 samples.

Results

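The lysosome's genes were examined in granulocyte-monocyte progenitors (GMPs), from which neutrophils and monocytes arise, of mice carrying normal or leukaemic grafts. The set comprised 37 mouse genes: lysosomal hydrolases, lipid transfer proteins, proteins of the lysosomal membrane, progranulin and the transcription factors Tfeb and Tfe3. Each gene was read from the array probe annotated to its symbol, and where several probes carried the symbol, from the one with the highest mean over all 9 arrays. All 37 were measured, among 21872 genes in all.

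The study asked how GMPs of mice with leukaemia differ from normal ones. All recipients were C57BL/6 mice, described in the labels as secondary recipients, and their marrow was taken 1 month after transplantation. The WT group had received wild-type bone marrow, and the LeuA (AE1) and LeuB (AE3) groups had each received spleen cells of a different moribund Tet2-/-:AE mouse, which lacked Tet2, whose product oxidizes methylated cytosine, and expressed AE (AML1-ETO, in which Runx1 is fused to Runx1t1). GMPs were sorted as cells negative for lineage markers, Sca1 and CD150 and positive for Kit and CD16/32, and their total RNA was hybridized with the dye Cy3 to single-colour Agilent mouse arrays, with 3 arrays per group. All arrays of a leukaemia descend from 1 primary mouse, and the graft tissue (spleen or marrow) changed together with the genotype. The labels call the arrays biological triplicates and do not say whether an array holds 1 recipient or a pool, so the spread behind each p-value is that between arrays and may be partly technical. The field on transplanted cells pairs the name LeuA with AE3 for the LeuB arrays, whereas their title, source and description give AE3 or LeuB, and the grouping followed these. Levels are log2 intensities, and differences between groups are log2 differences of means of 3 arrays. A gene was called, and is said below to have risen or fallen, at a Benjamini-Hochberg adjusted p under 0.05 in limma over all 21872 genes.

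Lysosomes digest proteins, glycans and lipids with acid hydrolases that are made in the endoplasmic reticulum, tagged with mannose 6-phosphate or carried by other receptors, and delivered through endosomes. The membrane is protected by heavily glycosylated proteins such as Lamp1 and Lamp2, and is kept acidic by the vacuolar proton pump (V-ATPase). Tfeb and Tfe3, basic helix-loop-helix factors held in the cytosol by mTORC1 in fed cells, activate many lysosomal genes through an E-box called the CLEAR element. In myeloid cells lysosomes are closely related to the primary granules of neutrophils, and macrophages are especially rich in lysosomal enzymes.

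Most of the 37 lysosomal genes were lower in leukaemic GMPs. In LeuA 34 were called, 26 lower and 8 higher, and 35 had groups that did not overlap with WT. Of all genes, 36.8% were called in LeuA (18.9% lower, 17.9% higher), and 49.5% had groups that did not overlap. In LeuB 30 were called, 24 lower and 6 higher, and 31 did not overlap with WT, where 42.3% of all genes were called (20.4% lower, 21.8% higher) and 52.4% did not overlap. At 2-fold or more, 15 were called lower and 2 higher in LeuA (6.78% and 6.2% of all genes), and 17 were called lower and 1 higher in LeuB (6.84% and 6.93% of all genes). The median log2 difference of the set was -0.85 in LeuA and -0.76 in LeuB, beside 0.01 and -0.01 over all genes. Of the 37, 33 lay above the median of the gene means, and the shares of all genes include the dim genes. With genes below that median left out, 31 of 33 were called in LeuA (23 lower, 8 higher), beside 6619 of 10936 genes (3115 lower, 3504 higher). In LeuB 28 of 33 were then called (22 lower, 6 higher), beside 7234 of 10936 genes (3442 lower, 3792 higher). The set was put together with earlier results of these arrays known, so these counts describe it and were given no test.

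Fewer cells of a type and less RNA per cell cannot be told apart in such sorted populations. Both leukaemias were compared with the same WT arrays, so the comparisons with WT are not independent of each other. In both, 22 genes fell and 5 rose (Ctsd, Tpp1, Smpd1, Laptm5 and Tfe3). No share of all genes called alike in both is given beside these counts, so they only describe the set. Ctsb, Fuca1 and Mcoln1 rose in LeuA and were not called in LeuB, Lipa, Npc1 and Tfeb fell in LeuA and were not called in LeuB, and Psap and Lamp1 fell in LeuB and were not called in LeuA. Sgsh was called in opposite directions, and Gla was called in neither. Directly between the leukaemias, 9 of the 37 genes were called (4 higher and 5 lower in LeuB), or 24.3%, where 12.3% of all genes were called (6.91% higher, 5.36% lower). Of these, 1 was at least 2-fold higher and 1 at least 2-fold lower in LeuB (0.946% and 0.777% of all genes). For 17 of the 37 the leukaemias did not overlap, as for 30.2% of all genes. With genes below the median of the gene means left out, 10 of 33 lysosomal genes were called between the leukaemias. In that fit 2642 of 10936 genes were called, so the share of genes called between the leukaemias depends on level.

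**Figure D1:**
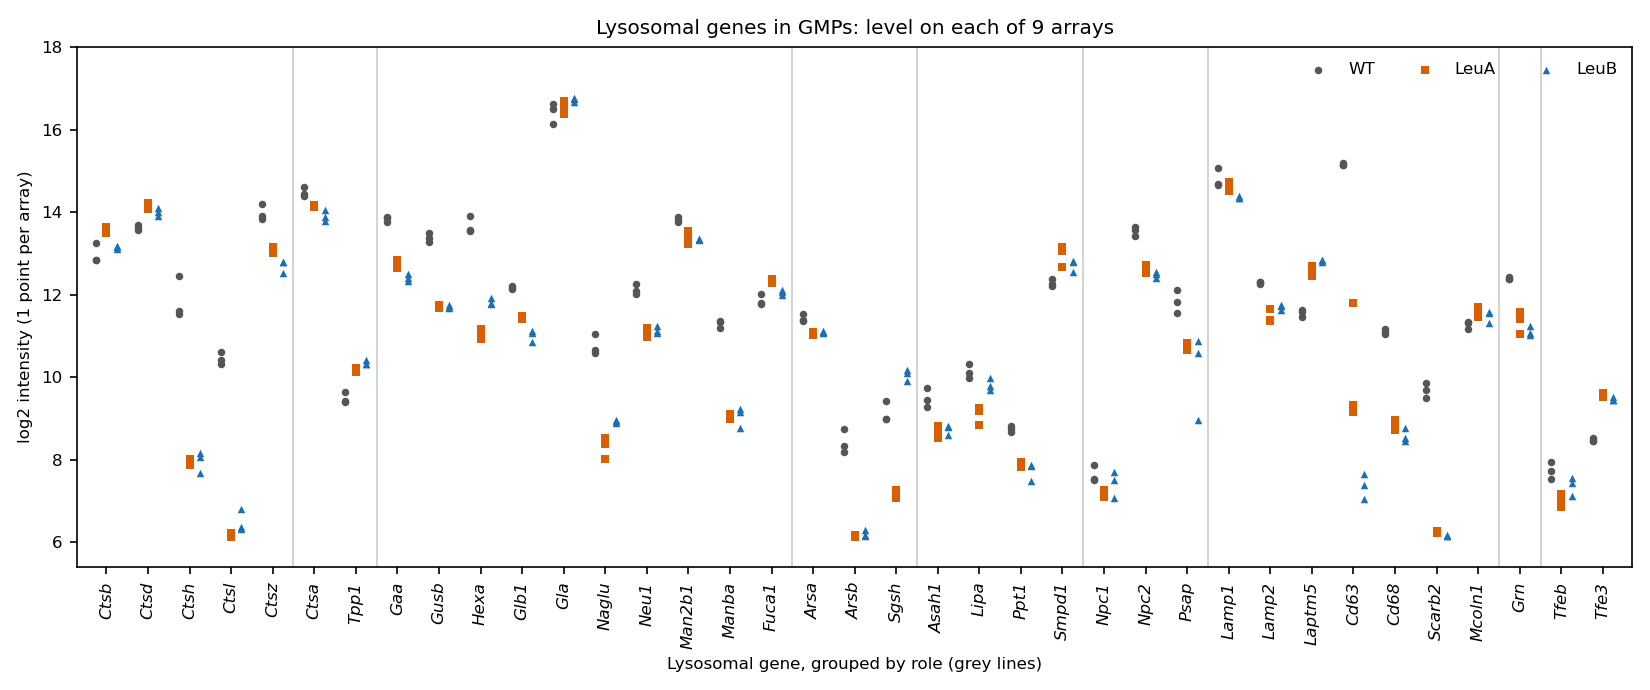
Level of each lysosomal gene (log2 intensity) on each array: WT (grey circles), LeuA (orange squares) and LeuB (blue triangles), ordered by role with grey lines between roles. The WT points of Ctsh, Ctsl, Scarb2 and Cd63 stand several units above all leukaemic points, while Tfe3, Laptm5 and Tpp1 lie lower in WT.

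Array medians lay between 7.02 and 7.04. The brighter of 2 Tet2 probes read 9.29, 9.19 and 9.29 in WT and 9.31, 9.45 and 9.38 in LeuA. In LeuB it read 9.05, 8.98 and 8.98. As it is not known whether this probe lies in the deleted part, it does not check the deletion. Runx1, the 5′ partner of AE, rose by 2.05 in LeuA and 1.14 in LeuB (adjusted p = 1.4e-08 and 9.1e-07), and Runx1t1, the 3′ partner, rose by 2.07 and 0.87 (adjusted p = 0.00012 and 0.02, limma). With the slide as a block Runx1t1 was not called in LeuB (0.53, adjusted p = 0.31). Of 12 GMP genes, 11 fell in each leukaemia, among them the granule enzyme Mpo and the granulocyte factor Cebpa (log2 differences of -5.28 and -5.43, with leukaemic means of 6.52 and 6.37 near the bottom of the scale). Mpo stood at 18.24, the highest value of the scale, on all WT arrays, so its WT level is known only as a lower bound and no difference is given. Of the genes behind the sort's positive markers, Kit gave -0.17 and -0.22 and was not called, and the CD16/32 genes Fcgr3 (-1.78 and -1.43, adjusted p = 6e-05 and 0.00025) and Fcgr2b (-1.64 and -0.96, adjusted p = 3.7e-08 and 1.8e-06) fell. The leukaemic cells are thus GMPs by their sorting gate, with lower levels of most genes that mark normal GMPs.

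Markers of some other cells moved as well. Of all genes, 36.8% were called in LeuA (18.9% lower, 17.9% higher) and 42.3% in LeuB (20.4% lower, 21.8% higher). The mean level of 11 monocyte and macrophage genes lay at 9.24 to 9.76 in WT, 6.57 to 6.61 in LeuA and 6.57 to 6.95 in LeuB, and 10 of the 11 fell in each leukaemia. For 11 mature neutrophil genes the mean levels were 8.71 to 10.06 in WT, 7.15 to 7.24 in LeuA and 6.72 to 8.65 in LeuB. Of these genes, 8 were called lower in LeuA (72.7%) and 5 in LeuB (45.5%). All 10 erythroid genes rose in each leukaemia, from mean levels of 8.51 to 8.62 in WT to 14.08 to 14.32 in LeuA and 14.36 to 14.45 in LeuB. Of 10 mast cell and basophil genes LeuA had 4 higher and 3 lower calls and LeuB 4 of each, with mean levels of 9.20 to 9.89 in WT, 10.99 to 11.48 in LeuA and 10.44 to 10.73 in LeuB. Of 6 B cell genes 2 fell in each leukaemia (33.3%). Of 7 T cell and NK cell genes 1 fell in LeuA (14.3%), while 4 fell and 1 rose in LeuB (71.4%). The B cell shares, and the T cell and NK cell share in LeuA, lay below the shares of all genes called. WT 1 was the highest WT array for 30 of the 37 lysosomal genes, by a median of 0.16 over the other WT arrays, and it was also higher in the monocyte and macrophage genes (median 0.56) and lower in the mature neutrophil genes (median -0.57). LeuB 3 exceeded the other LeuB arrays in the mature neutrophil genes by a median of 1.91. Without WT 1 and LeuB 3, 32 lysosomal genes were called in LeuA (25 lower, 7 higher) and 32 in LeuB (24 lower, 8 higher). WT 2 and WT 3 still had mean levels of 9.26 and 9.24 in the monocyte and macrophage genes and of 10.06 and 9.98 in the mature neutrophil genes. Leaving out those 2 arrays, WT 1 and LeuB 3, therefore kept the marker differences from the leukaemias. The part of these other cell types in the lysosomal differences was not tested.

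Promoters were read from RefSeq for GRCm38.p6, as the 250 bases before and 50 bases after each gene's start, and 33 of the 37 genes had such a window. Both strands were searched for GTCACGTG (reverse complement CACGTGAC), the core of the CLEAR element, and for the E-box CACGTG, which every GTCACGTG contains and which reads the same on both strands. GTCACGTG was found for 9 of the 33 genes (27.3%: Arsa, Ctsa, Ctsd, Gla, Glb1, Lamp1, Mcoln1, Naglu and Sgsh), and for 2.55% of the 27025 genes with a window. CACGTG was found for 11 of the 33 (33.3%, adding Ctsl and Gaa), and for 8.09% of all genes with a window. Among all 32851 windows, of the same 300 bases, 2.25% held GTCACGTG and 7.15% held CACGTG.

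The 120 bases before the start are shown for 6 genes with the motif, chosen to span the kinds of call seen with it. Sgsh was called in opposite directions, Naglu and Glb1 fell in both leukaemias, and Ctsd rose in both. Mcoln1 was called higher in LeuA, and Lamp1 was called lower in LeuB. Gla, which has the motif and was called in neither leukaemia, is not shown. Capitals mark CACGTG, with the flanking bases where they complete GTCACGTG or CACGTGAC. The stretches are Sgsh chr11:119355511-119355630 (minus strand), Naglu chr11:101069974-101070093 (plus strand), Glb1 chr9:114400958-114401077 (plus strand), Ctsd chr7:142387828-142387947 (minus strand), Mcoln1 chr8:3500399-3500518 (plus strand) and Lamp1 chr8:13159041-13159160 (plus strand), and each is written 5′ to 3′ along the gene.
Sgsh: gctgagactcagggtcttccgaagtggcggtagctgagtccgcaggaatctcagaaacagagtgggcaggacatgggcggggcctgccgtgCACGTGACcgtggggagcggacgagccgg
Naglu: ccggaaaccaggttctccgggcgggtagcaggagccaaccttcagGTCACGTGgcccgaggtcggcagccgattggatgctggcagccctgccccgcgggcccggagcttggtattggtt
Glb1: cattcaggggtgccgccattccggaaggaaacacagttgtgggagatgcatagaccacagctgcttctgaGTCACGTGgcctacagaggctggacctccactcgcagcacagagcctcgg
Ctsd: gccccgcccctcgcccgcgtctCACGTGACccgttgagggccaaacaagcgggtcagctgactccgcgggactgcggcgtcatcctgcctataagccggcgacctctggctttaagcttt
Mcoln1: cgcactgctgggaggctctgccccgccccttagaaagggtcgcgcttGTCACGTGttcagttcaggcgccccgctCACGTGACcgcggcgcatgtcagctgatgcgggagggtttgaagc
Lamp1: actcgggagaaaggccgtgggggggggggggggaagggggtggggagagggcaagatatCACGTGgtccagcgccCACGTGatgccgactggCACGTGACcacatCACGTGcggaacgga

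Lamp1 holds 4 E-boxes in this stretch, the first bases of which lie 61, 45, 28 and 15 bases before the start, and 1 of them completes CACGTGAC. Mcoln1 holds 2 complete motifs, with E-boxes that begin 71 and 45 bases before the start, and Sgsh holds 1 that begins 29 bases before it. The 9 genes with GTCACGTG had a median log2 difference of -0.33 in LeuA and -0.33 in LeuB, with 5 lower and 2 higher in each, and 2 of them were called with 2-fold or more in each. The 24 genes with a window and no GTCACGTG had medians of -1.04 and -1.17. Of these 24, 18 were lower and 5 higher in LeuA and 17 lower and 4 higher in LeuB, with 14 and 15 called at 2-fold or more. These are descriptions of letters in a window, and no test was made of the split. Beside these counts stand 36.8% of all genes called in LeuA (18.9% lower, 17.9% higher) and 42.3% in LeuB (20.4% lower, 21.8% higher). Those shares were not split by the motif. Asah1, Ctsb, Ctsh and Npc1 had no window and are in neither part of the split.

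The 250 bases before the start are shown for the genes with the largest fall and the largest rise in LeuB against WT among the 37, Cd63 chr10:128909095-128909344 (plus strand) and Laptm5 chr4:130913066-130913315 (plus strand). Neither motif occurs in their windows, so no base is in capitals.
Cd63: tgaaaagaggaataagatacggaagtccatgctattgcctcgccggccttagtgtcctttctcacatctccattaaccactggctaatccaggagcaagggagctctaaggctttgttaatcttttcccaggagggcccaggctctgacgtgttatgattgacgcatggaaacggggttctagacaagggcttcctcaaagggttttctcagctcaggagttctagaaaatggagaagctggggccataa
Laptm5: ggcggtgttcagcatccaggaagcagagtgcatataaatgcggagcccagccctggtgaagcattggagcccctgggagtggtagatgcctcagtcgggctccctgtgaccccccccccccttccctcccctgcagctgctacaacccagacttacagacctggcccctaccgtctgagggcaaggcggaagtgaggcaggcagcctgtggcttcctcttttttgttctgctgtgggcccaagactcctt

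Among the aspartic and cysteine cathepsins, Ctsh and Ctsl fell far more than Ctsz, and Ctsd rose. Ctsl, an endopeptidase, read 10.60, 10.33 and 10.42 in WT, 6.14, 6.16 and 6.22 in LeuA and 6.32, 6.38 and 6.82 in LeuB. All leukaemic arrays lay near the bottom of the scale, the lowest value of which over all probes is 5.66, and far from every WT array. The fall was 19.3-fold in LeuA (log2 -4.27, SE 0.13, adjusted p = 5.4e-09, limma) and 15.3-fold in LeuB (log2 -3.94, adjusted p = 9.7e-09). Without detection flags these are ratios of intensities, which can understate the change in RNA near the bottom of the scale.

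Ctsh, a cysteine cathepsin that acts mainly as an aminopeptidase, read 12.46, 11.54 and 11.60 in WT, 8.01, 7.87 and 7.93 in LeuA and 8.16, 7.69 and 8.07 in LeuB. WT 1 stood above the other WT arrays, and the leukaemias overlapped with each other and not with WT. Ctsh was 15.2-fold lower in LeuA (log2 -3.93, SE 0.23, adjusted p = 5.5e-07) and 14.9-fold lower in LeuB (log2 -3.89, adjusted p = 5.9e-07). Ctsz, a carboxypeptidase, read 14.20, 13.84 and 13.90 in WT, 13.02, 13.11 and 13.16 in LeuA and 12.80, 12.52 and 12.79 in LeuB. The groups formed 3 separate steps, with log2 differences of -0.88 in LeuA and -1.28 in LeuB (SE 0.11, adjusted p = 0.00015 and 1.1e-05), and the step between the leukaemias missed the threshold (-0.40, adjusted p = 0.051).

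Ctsd, the main aspartic protease of lysosomes, had mean levels of 13.62 in WT, 14.15 in LeuA and 14.00 in LeuB. It rose by 0.53 in LeuA and 0.38 in LeuB (SE 0.07, adjusted p = 0.00029 and 0.0025, limma), and the rise in LeuB was lost with the slide as a block (0.27, adjusted p = 0.053). Ctsb, an abundant cysteine cathepsin, had mean levels of 12.97, 13.60 and 13.15 in WT, LeuA and LeuB. It rose by 0.62 in LeuA (SE 0.11, adjusted p = 0.0018), gave 0.18 in LeuB (adjusted p = 0.25), and was lower in LeuB than in LeuA by a log2 difference of -0.44 (adjusted p = 0.035). This last call was lost in 7 of 18 alternatives, among them the slide as a block (adjusted p = 0.2) and the replicate block (adjusted p = 0.068).

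The other peptidases of the set went in different directions. Ctsa, a serine carboxypeptidase that also protects beta-galactosidase and neuraminidase in a complex, fell from a mean of 14.48 in WT to 14.15 in LeuA and 13.90 in LeuB. Its differences were -0.33 and -0.58 (SE 0.09, adjusted p = 0.014 and 0.00052), and the call in LeuA was lost without WT 1 (-0.27, adjusted p = 0.052). A second, separate Ctsa probe gave -0.12 and -0.14 and was not called. At an average of 6.73 on the WT arrays it lay below the array medians, so it could show little of a fall. Tpp1, a tripeptidyl peptidase, rose from 9.49 to 10.17 in LeuA and 10.36 in LeuB, by 0.68 and 0.87 (SE 0.08, adjusted p = 6.6e-05 and 1.1e-05).

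Of the 10 glycosidases, which remove sugars from glycoproteins, glycolipids and glycosaminoglycans, 8 fell in each leukaemia, beside 18.9% of all genes in LeuA and 20.4% in LeuB. Hexa encodes the alpha subunit of hexosaminidase A, which degrades the ganglioside GM2. It read 13.91, 13.55 and 13.56 in WT, 10.93, 11.17 and 11.06 in LeuA and 11.79, 11.77 and 11.93 in LeuB. No groups overlapped, and LeuA was the lowest. The fall was 6.14-fold in LeuA (log2 -2.62, SE 0.11, adjusted p = 5.4e-08) and 3.59-fold in LeuB (log2 -1.84, adjusted p = 6.5e-07), and the leukaemias differed by 0.78 (adjusted p = 0.0023). The difference between the leukaemias was called with the slide as a block (adjusted p = 0.048) and not on the first slide alone (adjusted p = 0.083).

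Naglu, which cleaves N-acetylglucosamine from heparan sulfate, read 11.05, 10.65 and 10.58 in WT, 8.54, 8.03 and 8.39 in LeuA and 8.89, 8.93 and 8.96 in LeuB. LeuB lay between LeuA and WT with no overlap. The falls were 5.41-fold in LeuA (log2 -2.43, SE 0.15, adjusted p = 8.8e-07) and 3.56-fold in LeuB (log2 -1.83, adjusted p = 6.9e-06), and the leukaemias differed by 0.60 (adjusted p = 0.032), a call lost in 7 of 18 alternatives (adjusted p = 0.27 with the slide as a block). Manba, the beta-mannosidase that acts late in the breakdown of N-glycans, read 11.37, 11.19 and 11.35 in WT, 9.10, 8.99 and 9.11 in LeuA and 8.76, 9.24 and 9.17 in LeuB. Here the leukaemias overlapped and both lay below WT, 4.71-fold in LeuA (log2 -2.24, SE 0.12, adjusted p = 3.2e-07) and 4.74-fold in LeuB (log2 -2.25, adjusted p = 3.1e-07).

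Gusb, or beta-glucuronidase, read 13.49, 13.28 and 13.38 in WT, 11.76, 11.68 and 11.71 in LeuA and 11.69, 11.76 and 11.68 in LeuB. The 6 leukaemic arrays covered the same narrow range, and the difference from WT was -1.67 in each (SE 0.07, adjusted p = 4.3e-08 and 4.2e-08). A second Gusb probe was also called lower in both, with -0.35 and -0.43. Gaa, the acid alpha-glucosidase that degrades glycogen, read 13.86, 13.88 and 13.75 in WT, 12.77, 12.64 and 12.84 in LeuA and 12.32, 12.41 and 12.49 in LeuB. WT stood highest and LeuB lowest with no overlap: the differences from WT were -1.08 and -1.42 (SE 0.08, adjusted p = 2.6e-06 and 3.5e-07), and LeuB was below LeuA (-0.34, adjusted p = 0.021). That last call was lost in 8 of 18 alternatives, among them the slide as a block (adjusted p = 0.063) and the mean of all probes (-0.19, adjusted p = 0.11). The second Gaa probe gave 0.02 and 0.00 and was not called. This probe averaged 6.82 on the WT arrays, below the array medians of 7.02 to 7.04, so it could show little of a fall. The mean of all probes averages this dim probe with the main one.

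Glb1, the beta-galactosidase of lysosomes, read 12.20, 12.14 and 12.15 in WT, 11.40, 11.46 and 11.48 in LeuA and 11.11, 10.85 and 11.06 in LeuB. Its groups were also ordered WT, LeuA, LeuB without overlap, with differences from WT of -0.72 and -1.16 (SE 0.08, adjusted p = 4e-05 and 1.3e-06) and of -0.44 between the leukaemias (adjusted p = 0.0063). The latter was not called with the slide as a block (adjusted p = 0.11) or on the first slide alone (adjusted p = 0.081). Neu1, the sialidase that removes terminal sialic acid, read 12.26, 12.01 and 12.08 in WT, 11.20, 11.06 and 10.98 in LeuA and 11.08, 11.13 and 11.23 in LeuB. Both leukaemias lay about equally far below WT (-1.04 and -0.97, SE 0.09, adjusted p = 9e-06 and 1.4e-05).

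Man2b1, the acid alpha-mannosidase, fell less, from a mean of 13.81 in WT to 13.39 in LeuA and 13.34 in LeuB (-0.42 and -0.47, SE 0.08, adjusted p = 0.003 and 0.0014). Fuca1, which removes fucose, rose in LeuA from 11.86 to 12.34 (0.48, SE 0.08, adjusted p = 0.00076) and gave 0.20 in LeuB (adjusted p = 0.066), with LeuB below LeuA (-0.28, adjusted p = 0.046), a call lost in 11 of 18 alternatives (adjusted p = 0.28 with the slide as a block and 0.058 with the replicate block). Gla, the alpha-galactosidase that cleaves globotriaosylceramide, was the member called in neither leukaemia. It read 16.14, 16.50 and 16.63 in WT, 16.68, 16.55 and 16.37 in LeuA and 16.66, 16.76 and 16.74 in LeuB. The groups WT and LeuA overlapped, and LeuB lay just above the highest WT array. The 95% interval of the log2 difference ran from -0.18 to 0.40 in LeuA (adjusted p = 0.59) and from 0.01 to 0.59 in LeuB (adjusted p = 0.092), and the latter was called without WT 3 (adjusted p = 0.039).

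**Figure D2:**
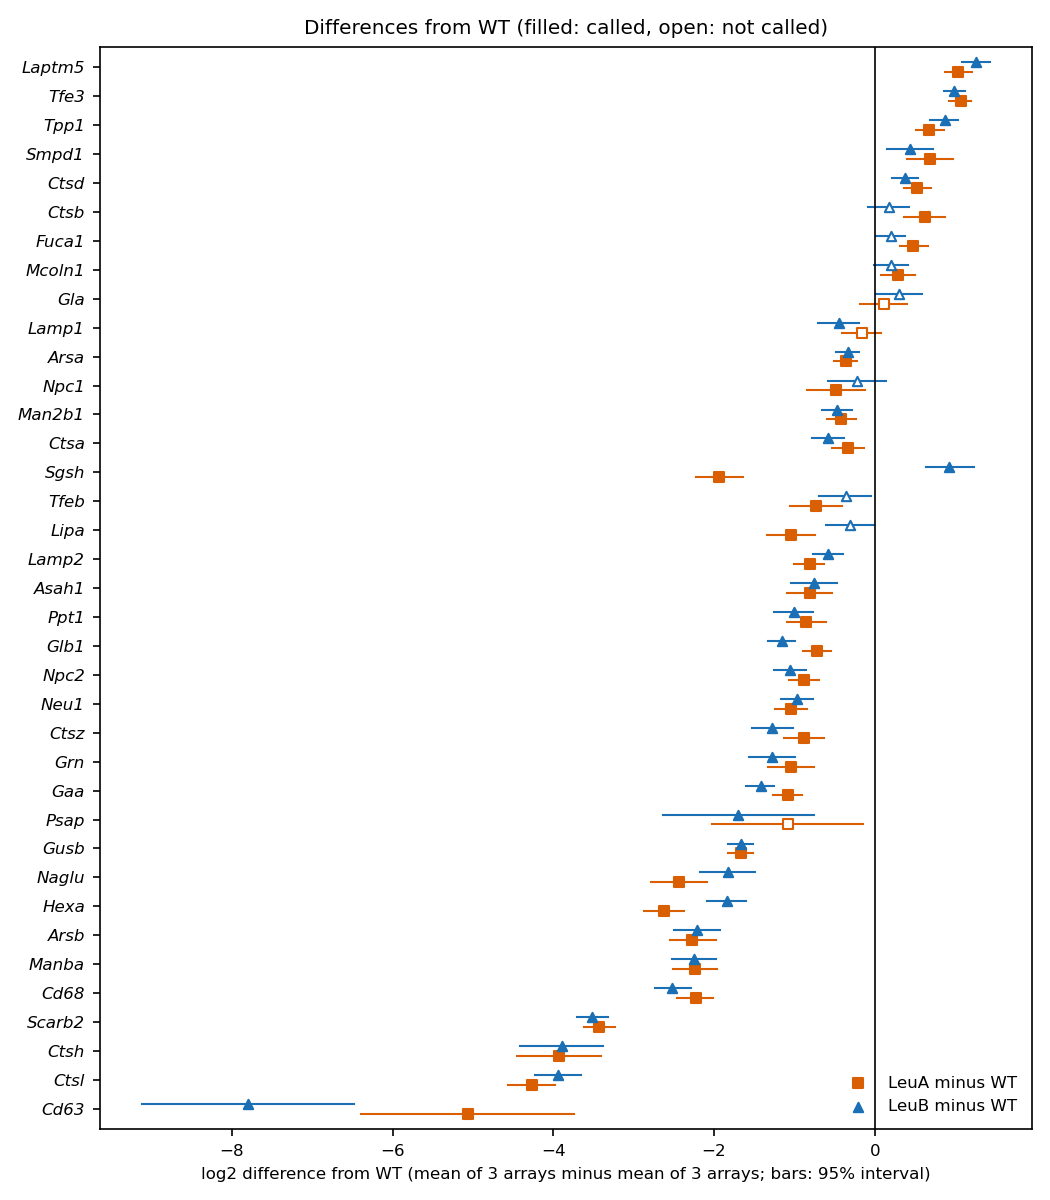
Log2 difference from WT of each lysosomal gene in LeuA and in LeuB with 95% intervals from the fit over all genes; filled symbols were called and open ones were not. Most points lie below 0, Cd63 lies lowest in both leukaemias, and Sgsh lies on opposite sides of 0.

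The 3 sulfatases, which remove sulfate from glycans and glycolipids, included a gene that moved in opposite directions in the leukaemias. Sgsh, the sulfamidase that acts on heparan sulfate as Naglu does, read 9.43, 8.99 and 8.98 in WT, 7.28, 7.07 and 7.24 in LeuA and 9.92, 10.10 and 10.17 in LeuB. Every LeuA array lay below, and every LeuB array above, all WT arrays. Sgsh fell 3.83-fold in LeuA (log2 -1.94, SE 0.13, adjusted p = 1.7e-06) and rose 1.91-fold in LeuB (log2 0.93, adjusted p = 0.00028). LeuB exceeded LeuA 7.3-fold (log2 2.87, 95% interval 2.57 to 3.16, adjusted p = 2.9e-06), and all 3 calls held in each of the 18 alternatives tried. The direction of Sgsh in LeuB was thus the reverse of that of Naglu, another heparan sulfate enzyme of the set.

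Arsb, the sulfatase of dermatan sulfate, read 8.75, 8.20 and 8.33 in WT, 6.17, 6.13 and 6.18 in LeuA and 6.18, 6.30 and 6.16 in LeuB. All 6 leukaemic arrays lay near the bottom of the scale. Arsb was 4.82-fold lower in LeuA (log2 -2.27, SE 0.13, adjusted p = 4.1e-07) and 4.63-fold lower in LeuB (log2 -2.21, adjusted p = 4.9e-07). Arsa, which desulfates sulfatide, fell from 11.43 to 11.06 in LeuA and 11.09 in LeuB (-0.36 and -0.33, SE 0.06, adjusted p = 0.0015 and 0.0023).

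Of the 4 lipid hydrolases 3 fell in LeuA and 2 in LeuB, beside 18.9% and 20.4% of all genes, and Smpd1 rose in both. Ppt1, which removes palmitate from proteins, read 8.82, 8.67 and 8.74 in WT, 7.82, 7.91 and 7.95 in LeuA and 7.48, 7.85 and 7.87 in LeuB. Every leukaemic array lay below WT, with differences of -0.85 and -1.01 (SE 0.11, adjusted p = 0.00014 and 3.9e-05). Asah1, the acid ceramidase, fell from 9.50 to 8.68 in LeuA and 8.74 in LeuB (-0.81 and -0.76, SE 0.13, adjusted p = 0.00058 and 0.00084).

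Lipa, the acid lipase that hydrolyses cholesteryl esters and triglycerides, read 10.33, 10.10 and 9.98 in WT, 9.26, 8.85 and 9.19 in LeuA and 9.70, 9.80 and 9.98 in LeuB. LeuA lay apart from both other groups, and LeuB 3 reached the lowest WT array. Lipa fell in LeuA (-1.04, SE 0.13, adjusted p = 0.00016), gave -0.31 in LeuB (adjusted p = 0.094), and was higher in LeuB than in LeuA by 0.73 (adjusted p = 0.0082), which was not called with the slide as a block (adjusted p = 0.15) or on the first slide alone (adjusted p = 0.21). Smpd1, the acid sphingomyelinase, rose from 12.28 to 12.97 in LeuA and 12.71 in LeuB (0.69 and 0.44, SE 0.13, adjusted p = 0.0018 and 0.021). In LeuB the call did not hold once WT 2, WT 3, LeuB 1 or LeuB 2 was left out (adjusted p = 0.066, 0.064, 0.054 and 0.077), or with the slide as a block (adjusted p = 0.07).

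Among the proteins that hand lipids on, Npc2, which carries cholesterol inside the lysosome, read 13.64, 13.42 and 13.57 in WT, 12.71, 12.73 and 12.53 in LeuA and 12.40, 12.50 and 12.55 in LeuB. Both leukaemias lay wholly below WT (-0.88 and -1.06, SE 0.08, adjusted p = 2e-05 and 5.5e-06). Its membrane partner Npc1 had means of 7.64 in WT, 7.16 in LeuA and 7.43 in LeuB, with -0.48 in LeuA (SE 0.16, adjusted p = 0.041) and -0.22 in LeuB (adjusted p = 0.32), and the call in LeuA was lost in 9 of the 17 alternatives that kept the gene: without any single WT or LeuA array or LeuB 2, without WT 1 and LeuB 3, and with the replicate block. Its highest adjusted p was 0.14.

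Psap, the precursor of the saposins that present sphingolipids to hydrolases, read 12.12, 11.82 and 11.55 in WT, 10.82, 10.77 and 10.67 in LeuA and 8.96, 10.87 and 10.58 in LeuB. LeuB 1 stood far below all other arrays, and both leukaemias lay below WT. With this array, Psap fell in LeuB (-1.70, SE 0.41, adjusted p = 0.0086) and was not called in LeuA (-1.08, adjusted p = 0.073). Without LeuB 1 it was called in both, with -1.11 in LeuB (adjusted p = 6e-04) and -1.08 in LeuA (adjusted p = 0.00039). The difference between the leukaemias was then -0.03, and it was -0.62 with the array.

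The 7 membrane proteins held the largest fall of the set. Cd63, a tetraspanin of late endosomes, lysosomes and secretory granules, read 15.20, 15.15 and 15.14 in WT, 11.81, 9.15 and 9.33 in LeuA and 7.06, 7.38 and 7.65 in LeuB. The 3 groups did not overlap, WT was tight, and LeuA 1 stood well above the other LeuA arrays (SD 1.48 in LeuA). Cd63 was 33.5-fold lower in LeuA (log2 -5.06, SE 0.58, adjusted p = 8e-05) and 223-fold lower in LeuB (log2 -7.80, adjusted p = 3.5e-06). The LeuB arrays lay just above the array medians of 7.02 to 7.04, so the bottom of the scale may limit the fold there. LeuB was below LeuA (-2.73, adjusted p = 0.017), by -1.88 without LeuA 1 (adjusted p = 0.00017), and the call between the leukaemias was lost without LeuB 2 (adjusted p = 0.066) and with the slide as a block (adjusted p = 0.12).

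Scarb2, the membrane receptor that brings beta-glucocerebrosidase to lysosomes, read 9.86, 9.50 and 9.70 in WT, 6.27, 6.28 and 6.23 in LeuA and 6.15, 6.16 and 6.19 in LeuB. All leukaemic arrays were near the bottom of the scale, 10.8-fold below WT in LeuA (log2 -3.43, SE 0.09, adjusted p = 1.6e-09) and 11.5-fold in LeuB (log2 -3.52, adjusted p = 1.4e-09). Cd68, a mucin-like protein abundant in macrophage lysosomes, read 11.16, 11.09 and 11.05 in WT, 8.92, 8.96 and 8.72 in LeuA and 8.77, 8.54 and 8.45 in LeuB. Cd68 fell 4.7-fold and 5.72-fold (log2 -2.23 and -2.52, SE 0.10, adjusted p = 8.3e-08 and 3.5e-08), and a second probe fell by 1.07 and 0.92 on the log2 scale. The monocyte and macrophage genes fell beside it, as given above.

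The structural glycoproteins had smaller differences than Cd63 and Scarb2. Lamp2, which also serves chaperone-mediated autophagy, fell from 12.29 to 11.47 in LeuA and 11.70 in LeuB (-0.81 and -0.58, SE 0.08, adjusted p = 3.3e-05 and 0.00031), and its second probe fell as well (-1.01 and -0.65). Lamp1 read 15.07, 14.66 and 14.69 in WT, 14.52, 14.74 and 14.67 in LeuA and 14.34, 14.38 and 14.35 in LeuB. LeuA overlapped with WT and LeuB did not: the 95% interval in LeuA ran from -0.41 to 0.08 (adjusted p = 0.32), and LeuB gave -0.45 (SE 0.11, adjusted p = 0.0087), a call that was lost with the slide as a block (adjusted p = 0.065).

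Laptm5, a transmembrane protein of lysosomes in blood cells, read 11.46, 11.62 and 11.58 in WT, 12.46, 12.69 and 12.62 in LeuA and 12.83, 12.78 and 12.83 in LeuB. The groups rose in steps without overlap, 2.05-fold in LeuA (log2 1.04, SE 0.08, adjusted p = 2.8e-06) and 2.4-fold in LeuB (log2 1.26, adjusted p = 6.6e-07), and the step between the leukaemias was not called (0.22, adjusted p = 0.092). Mcoln1, the calcium channel of the lysosomal membrane, averaged 11.27 in WT, 11.56 in LeuA and 11.48 in LeuB. It gave 0.29 in LeuA (SE 0.09, adjusted p = 0.039), a call lost in 8 of 18 alternatives, and 0.20 in LeuB (adjusted p = 0.12). A second Mcoln1 probe gave -0.05 and 0.01 and was not called. Its WT arrays averaged 6.70, below the array medians, so it says little about the rise of the main probe.

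Grn encodes progranulin, a secreted and lysosomal glycoprotein needed for lysosome function. It read 12.42, 12.38 and 12.39 in WT, 11.59, 11.42 and 11.05 in LeuA and 11.06, 11.02 and 11.25 in LeuB. The WT arrays lay within a few hundredths of each other and above every leukaemic array. Grn was 2.05-fold lower in LeuA (log2 -1.04, SE 0.13, adjusted p = 0.00013) and 2.43-fold lower in LeuB (log2 -1.28, adjusted p = 2.6e-05).

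The related transcription factors of lysosomal genes moved in opposite directions in LeuA. Tfe3 read 8.46, 8.45 and 8.54 in WT, 9.51, 9.54 and 9.61 in LeuA and 9.46, 9.45 and 9.51 in LeuB. The leukaemias lay together and above WT, 2.1-fold in LeuA (log2 1.07, SE 0.06, adjusted p = 3.8e-07) and 1.99-fold in LeuB (log2 0.99, adjusted p = 6.5e-07). Tfeb had means of 7.74 in WT, 7.01 in LeuA and 7.37 in LeuB, and it fell in LeuA (-0.73, SE 0.14, adjusted p = 0.0027) and gave -0.36 in LeuB (adjusted p = 0.071). A second Tfeb probe gave -0.05 and -0.02 and was not called. With a WT average of 6.28, near the bottom of the scale, it could show little of a fall. Transcript levels do not report where these factors reside in the cell.

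**Figure D3:**
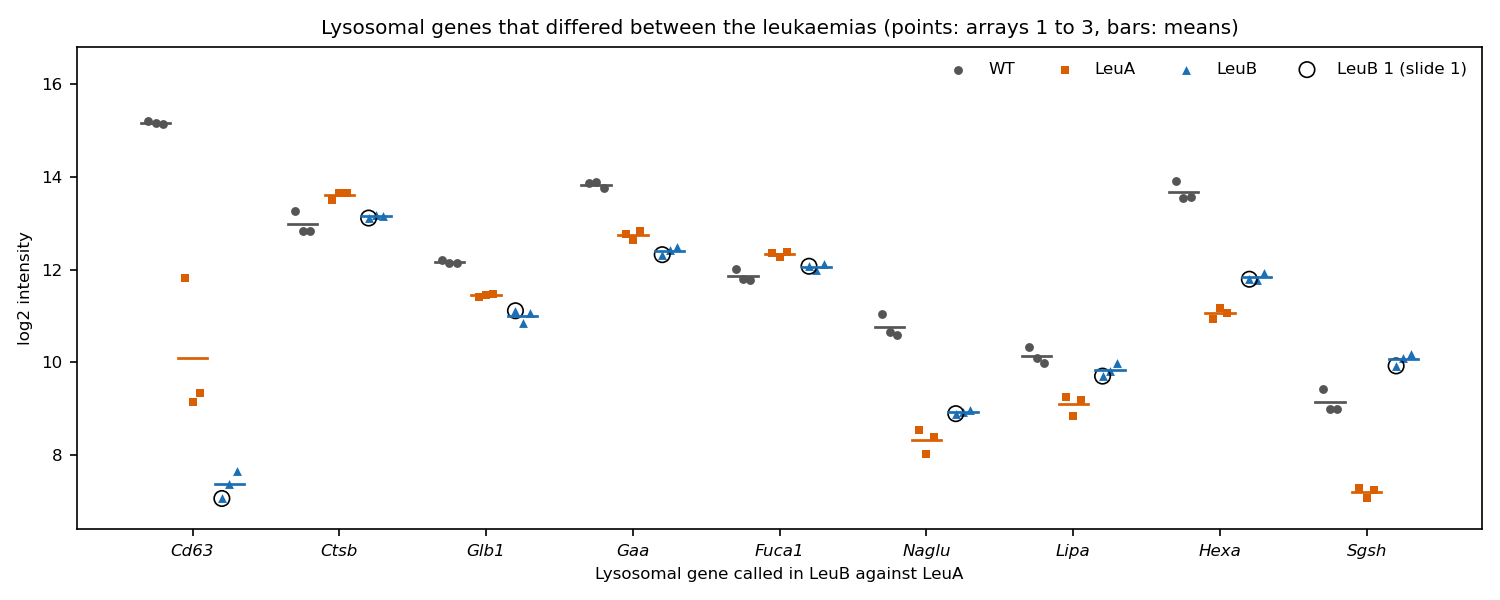
Level (log2 intensity) in WT, LeuA and LeuB of the 9 lysosomal genes called between LeuB and LeuA, with 3 arrays per group as points and group means as bars. An open ring marks LeuB 1, the only LeuB array that shared a slide with the other groups, and Sgsh shows LeuA below and LeuB above WT.

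The slide of an array touches the comparison of the leukaemias. The first slide held all WT and LeuA arrays and LeuB 1, and the second held LeuB 2 and LeuB 3. Of the 9 calls between LeuB and LeuA, 2 (Sgsh and Hexa) held with the slide as a block, where Psap and Ppt1 were called as well (4 in all). Sgsh and Psap were the 2 called on the first slide alone, where the spread of the lone LeuB array was taken from the other groups. Without LeuB 2 the count was 4, and without LeuB 1 it was 15. Sgsh was called in each of these, and Psap rests on the low LeuB 1 array. So does Ppt1, with 7.48 on LeuB 1 beside 7.85 and 7.87 on the other LeuB arrays. Its difference between the leukaemias was -0.42 with the slide as a block and -0.03 without LeuB 1.

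Another 6 lists of genes that work with the lysosome were counted in the same fit, and the part of cell composition was not tested there either. Against WT, 36.8% of all genes were called in LeuA and 42.3% in LeuB. With genes below the median of the gene means left out, 6619 of 10936 were called in LeuA and 7234 of 10936 in LeuB. The shares of the lists below are not matched for level. Among 23 other hydrolases and cofactors, 9 fell and 7 rose in LeuA (69.6% called, median 0.07). In LeuB 8 fell and 7 rose (65.2% called, median 0.04). Acp5, the tartrate-resistant acid phosphatase of osteoclasts, read 11.55, 11.34 and 11.19 in WT, 15.01, 15.12 and 15.09 in LeuA and 15.99, 16.01 and 16.12 in LeuB. It thus stood higher in every leukaemic array, by 3.71 in LeuA and 4.68 in LeuB (adjusted p = 1.5e-09 and 4.3e-10), and LeuB exceeded LeuA (0.96, adjusted p = 0.00028). Ctss, a cathepsin of antigen-presenting cells, fell (-3.63 and -3.27), as did Ctsc, which activates granule serine proteases (-2.97 and -3.44). Gm2a, the activator protein with which hexosaminidase A works, fell together with Hexa (-2.86 and -3.40, adjusted p = 7.6e-07 and 2.2e-07).

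Of 19 other membrane proteins, LeuA had 6 lower and 6 higher (63.2% called, median 0.16). LeuB had 5 lower and 9 higher (73.7% called, median -0.05). Slc38a9, which reports lysosomal amino acids to mTORC1, rose (1.49 and 1.62, adjusted p = 4.6e-06 and 2.5e-06), Abcb9, a peptide transporter, rose (0.36 and 0.93), and Lamp3 fell (-0.73 and -0.87). Laptm4b fell (-2.83 and -3.02, adjusted p = 0.0047 and 0.003), with WT arrays spread over 8.69, 11.20 and 8.35, and its call in LeuB was lost on the first slide alone (adjusted p = 0.066). Of 16 V-ATPase subunits, LeuA had 5 higher and 1 lower and LeuB 6 higher and 3 lower (median 0.14 in each). The called share in LeuA, 37.5%, was near the 36.8% of all genes, and in LeuB it was 56.2% beside 42.3%. Both lay below the shares among genes above the median level, whose counts are given above. The accessory subunit Atp6ap2 fell (-1.67 and -1.56, adjusted p = 1.2e-08 and 1.9e-08), whereas the membrane-domain subunits Atp6v0e (1.04 and 0.97), Atp6v0a2 (0.54 and 0.74) and Atp6v0b (0.57 and 0.60) rose.

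Of 14 genes of enzyme delivery, LeuA had 5 higher and 3 lower (57.1% called, median 0.01). LeuB had 5 of each (71.4% called, median -0.13). Gnptab, whose product puts the mannose 6-phosphate tag on hydrolases, fell (-1.70 and -1.85, adjusted p = 6.9e-07 and 3.8e-07), as did Nagpa, which uncovers the tag (-0.56 and -0.78). The sorting adaptors Gga2 (1.63 and 1.39) and Ap1m1 (0.63 and 0.46) rose. Of 16 genes that control lysosomal genes or sense nutrients at the lysosome, LeuA had 7 higher and 5 lower (75% called, median 0.14). LeuB had 5 higher and 4 lower (56.2% called, median 0.07). Of the relatives of Tfeb, Tfec fell (-3.44 and -3.49, adjusted p = 2.3e-08 and 2.1e-08), to leukaemic means near the bottom of the scale (6.29 and 6.24), and Mitf rose (1.61 and 1.35, adjusted p = 4.5e-08 and 1.6e-07). Lamtor4, of the Ragulator complex that holds mTORC1 at the lysosome, fell (-1.80 and -1.55), and Fnip2, a partner of folliculin, rose (1.04 and 1.47).

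Of 10 cathepsin and granule protease inhibitors, LeuA had 4 lower and 1 higher (50% called, median -0.14). LeuB had 4 lower and 3 higher (70% called, median -0.13). Serpinb1a, an inhibitor of neutrophil serine proteases, fell 11.4-fold and 27.7-fold (-3.51 and -4.79, adjusted p = 1.7e-06 and 1.7e-07), and LeuB was below LeuA (-1.28, adjusted p = 0.0089). The cystatins Cst7 (-1.55 and -1.81) and Cst3 (-1.42 and -1.60) fell as well. Stfa2l1 of the stefin A family, whose near-identical copies may share a probe, rose in LeuB (0.91, adjusted p = 0.0016) and was not called in LeuA (0.41, adjusted p = 0.092). Between the leukaemias, where 12.3% of all genes were called, limma called 3 of the 23 other hydrolases, 4 of the 19 membrane proteins, 2 of the 14 delivery genes, 4 of the 16 control genes and 1 of the 10 inhibitors. It called 0 of the 16 V-ATPase subunits, of which 2 had an unadjusted p under 0.05. The shares of the hydrolases (13%), delivery genes (14.3%) and inhibitors (10%) were near that of all genes. With genes below the median of the gene means left out, 2642 of 10936 genes were called between the leukaemias.

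**Figure D4:**
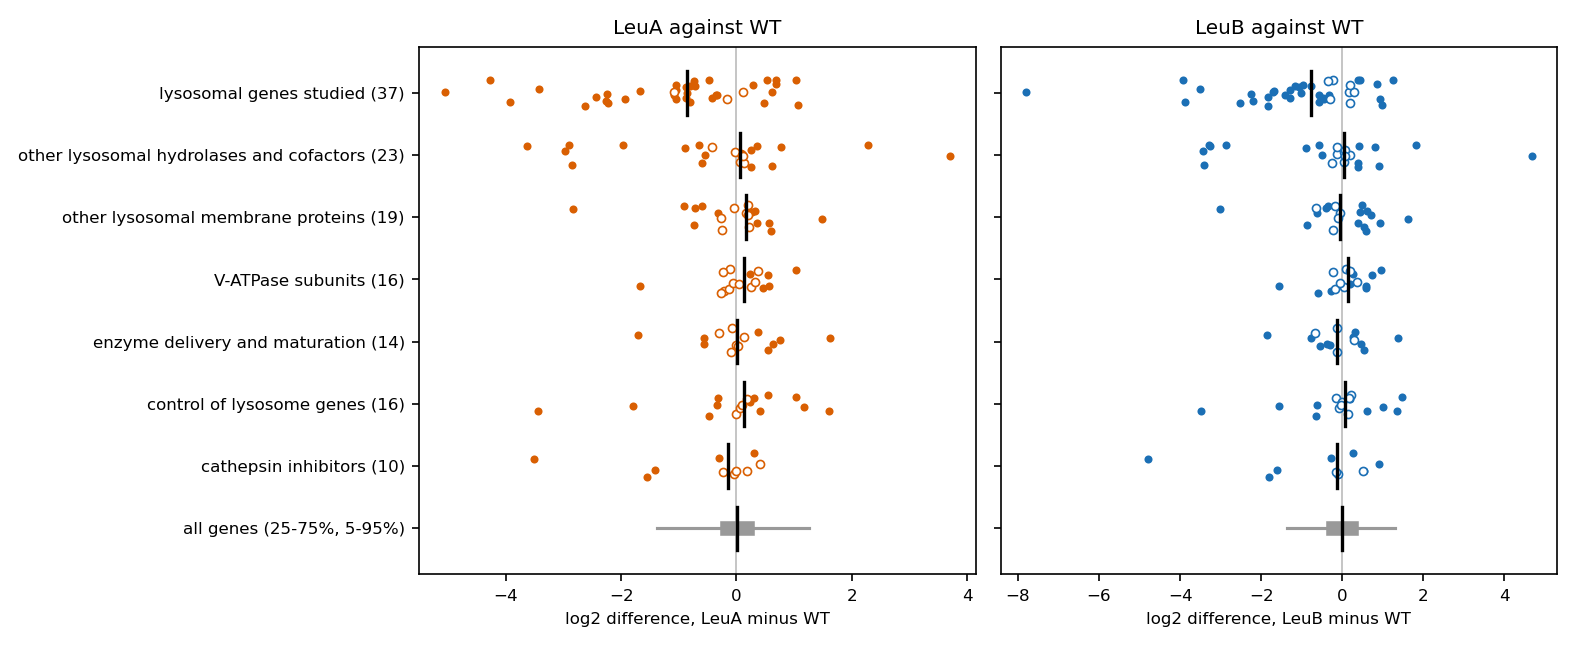
Log2 difference from WT in LeuA and LeuB of every gene in the 37-gene set and in the 6 further lists, 1 point per gene, filled where called, with the median of each list as a bar and the spread of all genes in grey. The medians of the 37 genes are -0.85 and -0.76, and those of the other lists lie between -0.14 and 0.16.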

How the data were processed

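GMP RNA was measured on 9 single-colour arrays, 3 per group. The values are log2 intensities as the authors deposited them for 37877 probes, between 5.66 and 18.24. RMA, affy and limma are named, per the submitters' processing notes, without roles or versions, and background correction and detection flags are not described. No gene filter was applied, depth is not a count, and the number of arrays limits the precision.

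Probes were named from the platform's annotation. Of all probes, 24877 had 1 symbol, 0 several and 13000 none. Of the named probes, 24606 matched a mouse gene table by identifier, which changed 0 symbols. Of 21872 genes, 2637 had several probes, and the probe with the highest mean was used.

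Group means were fitted to all 9 arrays with limma 3.58.1 (lmFit, eBayes) in R 4.3.3 with the data.table package, version 1.17.8, two-sided, with Benjamini-Hochberg adjustment over all genes. The fit was tested on simulated data, and 18 alternatives were run.

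The 37 genes and the lists were chosen with earlier results of these data known. Values are given by array for genes called with a log2 difference of at least 1 from WT, or at least 0.5 between leukaemias, and for a few others chosen after their values were seen (Gla, Lamp1, Acp5). From each further list, up to 4 called genes with the largest mean absolute difference are named. Promoters come from RefSeq (GRCm38.p6). The array's own genome build is not given in the sources used here.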

Additional observations from a re-analysis of the deposited data

Results flagged for a closer look

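For 9 of the 37 lysosomal genes the test of LeuB against LeuA itself called a difference (limma, adjusted over all genes). LeuB is split over 2 slides, and with the slide as a block Sgsh and Hexa of these 9 were still called. Sgsh was 2.87 higher in LeuB on the log2 scale (adjusted p = 2.9e-06), Hexa 0.78 (adjusted p = 0.0023), Lipa 0.73 (adjusted p = 0.0082) and Naglu 0.60 (adjusted p = 0.032). Cd63 was lower in LeuB (-2.73, adjusted p = 0.017), as were Ctsb (-0.44, adjusted p = 0.035), Glb1 (-0.44, adjusted p = 0.0063), Gaa (-0.34, adjusted p = 0.021) and Fuca1 (-0.28, adjusted p = 0.046). Among the other genes named, Acp5 (0.96, adjusted p = 0.00028), Abcb9 (0.57, adjusted p = 0.0026), Fnip2 (0.43, adjusted p = 0.017) and Lamtor4 (0.25, adjusted p = 0.036) were higher in LeuB. Serpinb1a (-1.28, adjusted p = 0.0089), Mitf (-0.27, adjusted p = 0.031), Runx1 (-0.90, adjusted p = 8.6e-05), Runx1t1 (-1.20, adjusted p = 0.016) and Tet2 (-0.37, adjusted p = 0.0061) were lower in LeuB. With the slide as a block Fnip2, Lamtor4, Mitf and Tet2 were not called between the leukaemias (adjusted p = 0.25, 0.39, 0.34 and 0.092). With the mean of its 2 probes Tet2 was not called between them either (-0.15, adjusted p = 0.24). Over all alternatives the call of Lamtor4 held in 6 of 18, that of Mitf in 7 of 18 and that of Runx1t1 in 14 of 17. Runx1t1 was not called without LeuB 2 (adjusted p = 0.053) or without WT 1 and LeuB 3 (adjusted p = 0.053).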

How the results depend on the processing

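Leaving out each array in turn, the lysosomal genes called numbered 31 to 35 in LeuA, 29 to 32 in LeuB and 4 to 15 between the leukaemias. Over all genes the counts were 7073 to 8591, 8003 to 10822 and 1380 to 5498. Between the leukaemias 2683 genes were called with all arrays. This count was 1409 without WT 1 and LeuB 3, 869 with the slide as a block, 581 on the first slide alone and 1783 with only these groups in the fit, while the lysosomal count fell from 9 to 4 with the slide as a block (2 of the 9 kept) and to 2 on the first slide alone (1 kept). These fits use fewer arrays, or compare LeuB with the other groups through LeuB 1 alone. Among the fits that leave out 1 array, the highest counts between the leukaemias came without LeuB 1 and the lowest without LeuB 2, and the cause was not tested.

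Same-numbered arrays of different groups correlated across genes between -0.041 and 0.103 after removal of group means, and 4 of 9 arrays correlated best with their own number, so the numbers were not taken as pairs. With the replicate number as a block, 33, 30 and 7 lysosomal genes were called (7862, 9154 and 2281 of all genes).

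The alternatives kept the calls of 31 of 34 genes in LeuA (not Ctsa, Mcoln1 and Npc1), 27 of 30 in LeuB (not Ctsd, Lamp1 and Smpd1) and 1 of 9 between the leukaemias (Sgsh). There were 18 alternatives, and 17 for Arsb, Scarb2, Tfeb and Npc1, which lie below the filter on dim genes. No call changed sign. Of the further lists, the count of other membrane proteins called in LeuB ranged from 8 to 15 and that of inhibitors from 4 to 8. Intensities near the bottom of the scale limit the folds of Ctsl, Arsb, Scarb2 and, in LeuB, Cd63. Among other genes named, they limit those of Tfec, Laptm4b, Ctss, Ctsc, Gm2a and Cebpa. The number of arrays, 3 per group, with each leukaemia from 1 mouse, limits the rest.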
